A study of Mus musculus with 4 samples.

Results

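The genes described here are 9 of the 26600 genes that all 4 count tables share: Adipoq, Lepr, Lep, Retn, Cfd, Rbp4, Nampt, Rarres2 and Il1rn, taken as the rows of these names. They encode the leptin receptor and a set of secreted proteins known as adipokines, the hormones and cytokines of fat tissue. They were measured by RNA sequencing of single endosteal bone marrow cells of male Col2:Td mice on a B6SJL/F1 background, in which Cre recombinase driven by the Col2 promoter switches on tdTomato (Td) from the Rosa26 locus in cells of the skeletal lineage and their descendants. The mice were 1 month (2 mice), 1.5 months, 3 months and 16 months old (3 mice each). The labels name no treatment and the same alleles for every group, and cells were sorted for Td, as the brightest 1% where the Td peak was not distinct. The mice of an age were pooled into 1 library, so there is no replicate. Every interval given below is a 95% interval of counting error only, and differences between libraries include whatever differs between the pools, the sorts and the library preparations.

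Adiponectin, the product of Adipoq, circulates in large amounts and raises insulin sensitivity, and leptin, the product of Lep, reports fat stores to the brain. In bone marrow, the leptin receptor Lepr is best known as a marker of the reticular stromal cells that line sinusoids and keep hematopoietic stem cells, and these cells also make adiponectin without storing fat. The other members are the serine protease adipsin (Cfd), which starts the alternative complement pathway, the retinol carrier Rbp4, the chemoattractant chemerin (Rarres2), the interleukin 1 receptor antagonist Il1rn, the NAD-producing enzyme Nampt (also called visfatin) and resistin (Retn).

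The bases before the start of 3 of these genes are shown because the adiponectin gene was at its highest in the stromal cells described below, the leptin gene gave no transcript at all in the same cells, and the leptin receptor gene was highest in the oldest library. They are RefSeq windows of 250 bases on GRCm38.p6, the mm10 assembly of the files, printed 5′ to 3′ on the strand of the gene, with matches to 4 motifs in capitals: the TATA box (TATAAA), the CCAAT box (CCAAT), the C/EBP motif (TTGCNNAA) and the GC box (GGGCGG), each searched on both strands.
Adipoq, chr16:23146286-23146535, plus strand: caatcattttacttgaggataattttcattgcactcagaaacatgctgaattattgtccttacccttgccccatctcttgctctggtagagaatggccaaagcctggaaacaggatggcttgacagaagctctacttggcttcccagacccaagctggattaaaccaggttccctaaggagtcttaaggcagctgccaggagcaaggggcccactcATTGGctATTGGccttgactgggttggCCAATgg
Lepr, chr4:101717157-101717406, plus strand: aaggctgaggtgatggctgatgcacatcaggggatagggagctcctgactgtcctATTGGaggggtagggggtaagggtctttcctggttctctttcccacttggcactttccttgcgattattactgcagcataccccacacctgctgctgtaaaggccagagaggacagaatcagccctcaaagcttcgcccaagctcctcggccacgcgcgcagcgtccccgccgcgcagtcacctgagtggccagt
Lep, chr6:29059971-29060220, plus strand: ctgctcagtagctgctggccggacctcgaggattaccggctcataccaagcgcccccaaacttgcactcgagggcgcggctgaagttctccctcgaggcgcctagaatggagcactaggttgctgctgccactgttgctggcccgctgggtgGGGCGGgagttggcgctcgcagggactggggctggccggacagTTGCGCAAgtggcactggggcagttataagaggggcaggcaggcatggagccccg
The Adipoq window held 3 CCAAT boxes, beginning 34, 27 and 7 bases before the start, the first and second of them on the other strand, and had 0 CpG. The Lepr window, which lies before the first of the starts listed for the gene, held 1 CCAAT box on the other strand, beginning 195 bases before the start, and 10 CpG. The Lep window held 1 GC box, beginning 98 bases before the start, and 1 C/EBP match at 55 bases that reads the same on both strands, and had 16 CpG. Over the 32851 promoter windows of this length, 12.4% held a TATA box, 33.8% a CCAAT box, 9.56% a C/EBP match and 32.7% a GC box, and the median number of CpG was 6. These matches describe the letters in the windows and nothing more. Sequences were found for 8 of the 9 members.

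With barcodes limited to 200 to 6000 genes and to no more than 5% of UMIs from mitochondrial genes, the libraries held 8308, 5453, 4180 and 6143 cells from youngest to oldest, with median depths between 6264 and 10279.5 UMIs per cell. The 9 members, their pathway genes and the naming markers were left out of the genes used for clustering. Cells were named by markers other than the members: adipocyte-lineage (AD-like) cells from Pparg, Cebpa, Lpl, Cxcl12, Kng1, Kng2, Agt, Esm1 and Gdpd2, early (EMP-like) and late (LMP-like) mesenchymal progenitors, osteoblasts (OB-like), osteocytes (Ocy-like), chondrocytes (CH-like), mural, endothelial and hematopoietic cells. All 9 AD markers were at 10 CPM or more (the UMIs of a gene summed over a class of a library and scaled by all UMIs there) in AD-like cells of every library. AD-like cells numbered 214, 1174, 424 and 3718 from youngest to oldest, or 2.58%, 21.5%, 10.1% and 60.5% of the cells kept. The 1, 1.5 and 3 month libraries shared 61, 49 and 30 barcodes in pairs, whereas the 16 month library shared 1, 2 and 1 with them and lists 31054 genes against 27999. Its age therefore cannot be told apart from a different barcode set or annotation, and 2892 of its 9229 barcodes were over the mitochondrial limit, against at most 325 in another library. Neutrophil-like cells, which should lack the stromal members, gave the level from free RNA. Those of the 1.5 month library carried chondrocyte markers at 59185 CPM beside neutrophil markers at 62021 CPM, so they are a poor zero at that age.

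Of the 9 members, 6 (Adipoq, Lepr, Rbp4, Nampt, Rarres2 and Il1rn) reached 10 CPM in AD-like cells in each of the 4 libraries, Cfd reached it in endothelial-like cells, Retn stayed near the limit of detection and Lep gave no UMI. Adipoq and Il1rn were highest in AD-like cells among the named mesenchymal classes at all ages, Lepr was shared with EMP-like cells at 16 months, Rarres2 was shared with EMP-like and mural-like cells, Rbp4 was highest in LMP-like cells, and Nampt was spread over stromal, endothelial and myeloid cells. Between ages, AD-like cells of the 16 month library had more Lepr and less Rbp4 and Il1rn than those of each younger library.

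**Figure D1:**
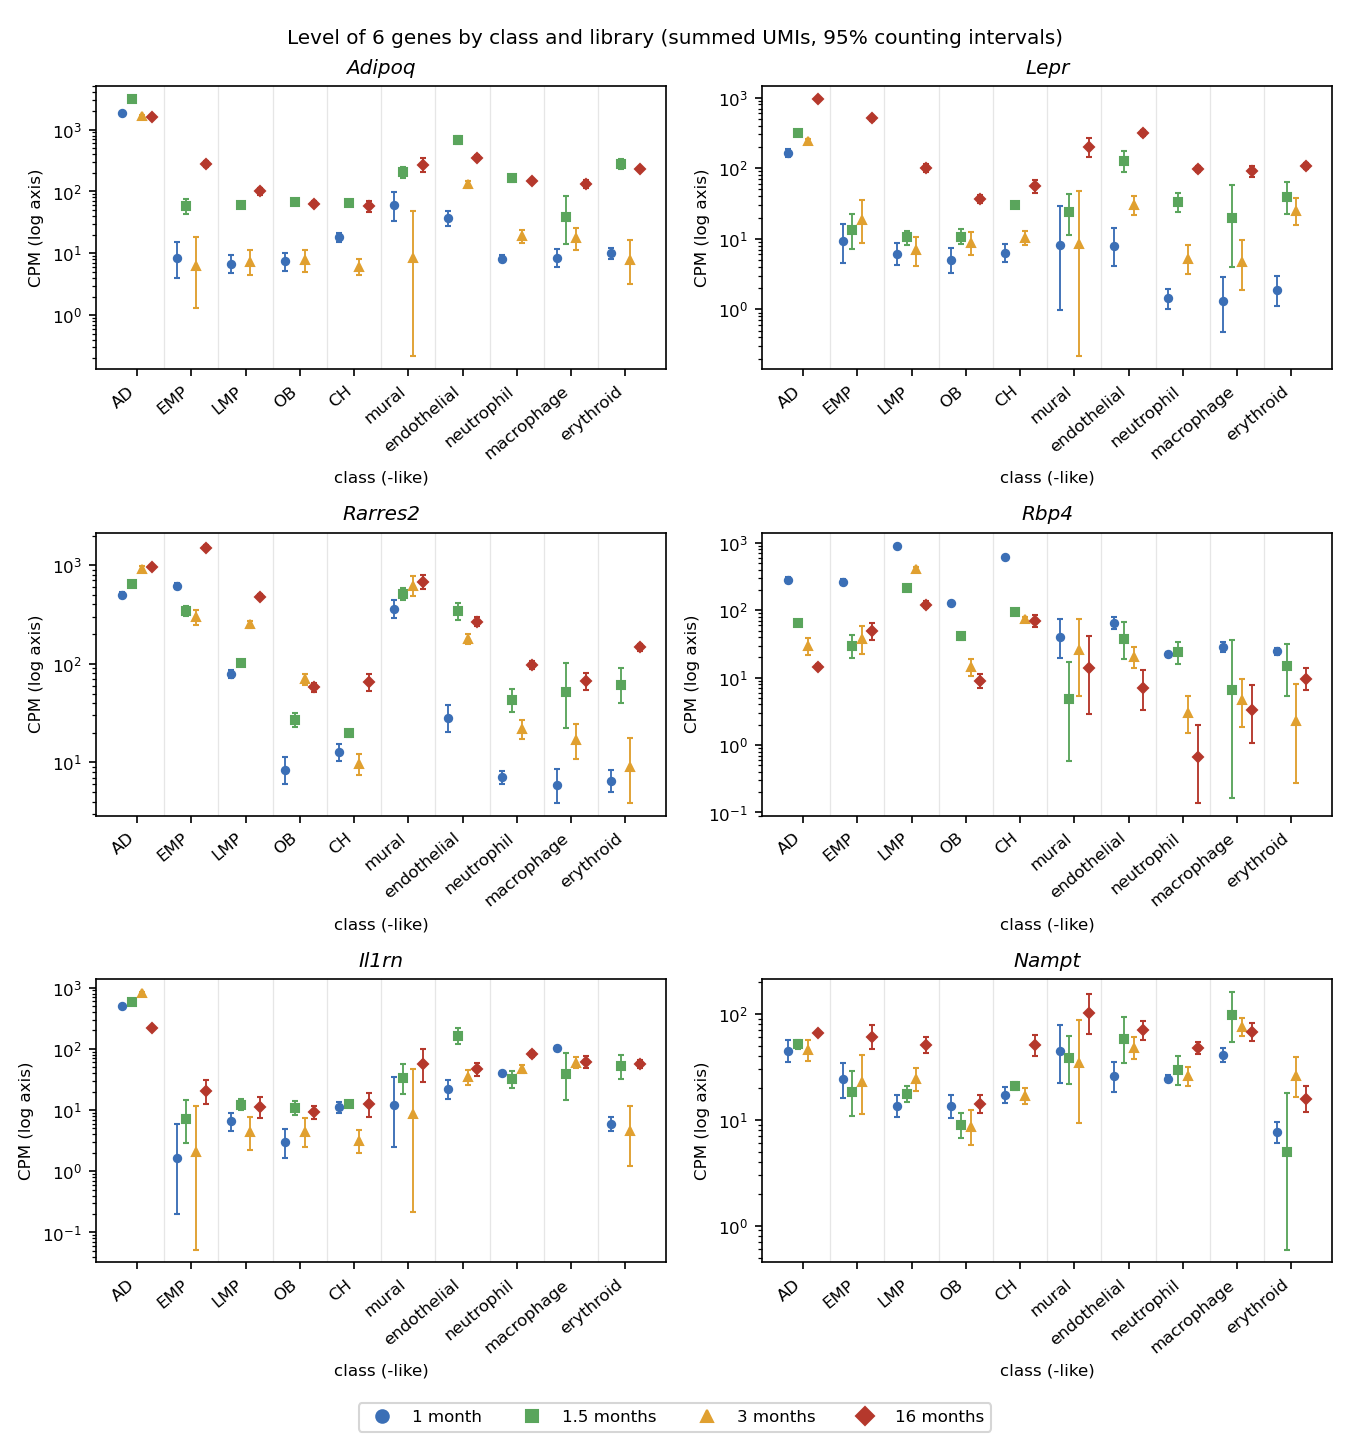
Level of 6 members (CPM, log axis) by class, with 1 point per library and bars for the 95% counting interval. Adipoq and Il1rn are highest in AD-like cells, the 16 month Lepr point of EMP-like cells stands at 507 CPM against at most 18.7 in the younger libraries, and Rbp4 is highest in LMP-like cells.

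Adipoq (chr16:23146536-23158028, plus strand) was 1857 CPM (1792 to 1925) in AD-like cells at 1 month, 3105 CPM (3064 to 3146) at 1.5 months, 1664 CPM (1604 to 1725) in the 3 month library and 1576 CPM (1564 to 1589) at 16 months. The 1.5 month library was the highest, 1.67 times the 1 month level (1.61 to 1.74), and the other libraries lay close together. After each cell was thinned to 3000 UMIs, 87.4%, 98.3%, 91.9% and 91.9% of AD-like cells had an Adipoq UMI, from 1 to 16 months (93.5%, 99.4%, 94.6% and 97.7% unthinned, and 67 and 69 shallower cells left out at 3 and 16 months). In neutrophil-like cells, the thinned share was 2.00%, 25.3%, 3.01% and 14.8%. AD-like cells held 64.8%, 81.0%, 75.6% and 92.6% of all Adipoq UMIs in the cells kept. Most AD-like cells thus had the transcript, at a level that differed less than 2-fold between any pair of libraries.

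Outside AD-like cells, Adipoq stood at 6.07 to 18.4 CPM in the EMP-like, LMP-like, CH-like and OB-like cells of the 1 and 3 month libraries. At 1 month the CH-like cells, at 18.4 CPM, stood above the 8.19 CPM of neutrophil-like cells, and the other classes lay near that level. At 3 months all of these classes lay below the 19.0 CPM of neutrophil-like cells. In the 1.5 month library, the same classes had 58.0 to 68.5 CPM, below the 164 CPM of neutrophil-like cells, which are a poor zero at that age, and the 280 CPM of 39 erythroid-like cells. At 16 months, neutrophil-like cells had 149 CPM, LMP-like cells 101 CPM, OB-like cells 63.9 CPM and EMP-like cells 281 CPM (249 to 316). The EMP-like value lay above the neutrophil-like one at this age but below the 588 CPM of 53 B cell-like cells, which should also lack the transcript, so it cannot be told apart from free RNA. Endothelial-like cells had 36.7, 681, 130 and 351 CPM from 1 to 16 months, and 32 of them were kept at 1.5 months. At 1 and 3 months they came next to AD-like cells among named classes of at least 50 cells. An unnamed mesenchymal subcluster stood higher in each of these 2 libraries, which were clustered apart. That of 1 month was led by Wif1 and Limch1 and held 472 Adipoq UMIs of 2148951. That of 3 months was led by Spp1 and Serpine2 and held 282 of 1565248. The endothelial-like cells held 55 of 1499664 and 192 of 1477650. The 88 cells of mixed clusters at 3 months, with 256 of 794840, also stood higher. With the cells of highest doublet score left out, the endothelial-like level was 6.97 CPM at 1 month and 26.8 CPM at 3 months, so this level and its rank rest on such cells.

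Lepr (chr4:101717404-101815352, plus strand) stands for the long and short forms of the leptin receptor in sum, since the counts are per gene. In AD-like cells it was 165 CPM (146 to 186) at 1 month, 318 CPM (305 to 331) at 1.5 months, 239 CPM (217 to 263) in the 3 month library and 949 CPM (939 to 959) at 16 months. No pair of these intervals overlaps. The 16 month level was 5.75 times that of 1 month (5.10 to 6.50), 2.99 times that of 1.5 months (2.86 to 3.12) and 3.97 times that of 3 months (3.61 to 4.38). The thinned share of AD-like cells with a Lepr UMI was 40.7%, 60.8%, 45.9% and 91.0% (63.1%, 81.5%, 57.1% and 99.3% unthinned), against 0.300%, 10.3%, 0.694% and 10.6% of neutrophil-like cells. For every 100 Adipoq UMIs, AD-like cells had 8.89, 10.2, 14.4 and 60.2 Lepr UMIs, so the 2 transcripts of the same cells stood in a different ratio at 16 months.

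EMP-like cells, the earliest progenitors of the mesenchymal lineage in the study's scheme, also had more Lepr at 16 months. They held 11 Lepr UMIs at 1 month (9.15 CPM, 4.57 to 16.4), 13 at 1.5 months (13.2 CPM, 7.05 to 22.6), 9 at 3 months (18.7 CPM, 8.57 to 35.6) and 500 at 16 months (507 CPM, 464 to 554). The 16 month level was 55.5 times the 1 month level (30.7 to 112), and 38.3 and 27.1 times the 1.5 and 3 month levels. After thinning to 3000 UMIs the ratio to 1 month was 29.7. A Lepr UMI was found in 6 of 153, 2 of 115, 4 of 86 and 63 of 109 thinned cells, or 3.92%, 1.74%, 4.65% and 57.8% (48.0% to 67.2% at 16 months), and in 6.54%, 8.70%, 7.14% and 73.6% of unthinned cells. The 3 younger libraries lie within each other's intervals, and the 16 month one lies outside all of them. The EMP-like clusters were not alike: that of the 1 and 1.5 month libraries had all 5 EMP markers raised and was led by Clec3b and Ly6a. Those of the 3 and 16 month libraries had 4 raised, without Pi16, and were led by Prg4. A cluster of 33 cells of the 1 and 1.5 month libraries, led by Prg4, was left unnamed and held 0 Lepr UMIs. The part of this in the age difference was not tested. Over the same ages, neutrophil-like cells went from 1.43 to 97.9 CPM of Lepr, so free RNA of this gene was also most abundant at 16 months. The EMP-like level was above that of neutrophil-like cells and of B cell-like cells (327 CPM) at 16 months. It was below the 736 CPM (659 to 820) of 174 cells in mixed clusters of that library. These had a median of 860 UMIs and 66.6 Lepr UMIs per 100 Adipoq UMIs. Of them, 152 formed a cluster led by the megakaryocyte gene Pf4, with 8 of the 9 AD markers raised.

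Markers of AD-like cells moved with this result. The summed level of the 9 AD markers in EMP-like cells was 318, 1222, 337 and 8737 CPM from 1 to 16 months, with 3, 7, 4 and 9 of them at 10 CPM or more and Kng2 at 0 at 1 month and Kng1 at 0 at 3 months, and it was 125, 1985, 446 and 3142 CPM in neutrophil-like cells. The 5 EMP markers summed to 11103, 14647, 11407 and 6983 CPM in the same EMP-like cells. Against Adipoq, 16 month EMP-like cells had 181 Lepr UMIs per 100 Adipoq UMIs (156 to 210), compared with 60.2 in AD-like cells, 65.7 (58.1 to 74.3) in neutrophil-like cells and 68.2 in macrophage-like cells of that library. It was 169 (150 to 189) in unnamed subcluster 5 of 404 mesenchymal cells, 112 in Ocy-like, 100 in LMP-like, 96.8 in CH-like and 90.9 in endothelial-like cells, so a ratio above that of AD-like cells was not particular to EMP-like cells. The same ratio in EMP-like cells of the 1 month library was 110 (42.4 to 289), from 11 Lepr and 10 Adipoq UMIs, so its interval includes the 16 month value. Of the thinned 16 month EMP-like cells without an Adipoq UMI, 48 of 89 (53.9%, 43.0% to 64.6%) had a Lepr UMI. With the neutrophil-like level subtracted from both libraries, the ratio of 16 months to 1 month was 53.1, and in EMP-like cells without an Adipoq UMI it was 48.8; both were computed after the data had been seen.

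LMP-like cells had 6.17, 10.4, 6.88 and 101 CPM of Lepr from 1 to 16 months, and neutrophil-like cells had 1.43, 33.3, 5.22 and 97.9 CPM, so the 16 month values of both classes were close. OB-like cells had 4.99 to 36.4 CPM and were below neutrophil-like cells at 1.5 and 16 months. At 16 months, Lepr in AD-like cells was 1.87 times the level in EMP-like cells (1.71 to 2.05), whereas this ratio was 18.1, 24.0 and 12.7 at 1, 1.5 and 3 months. Lepr therefore passed the 2-fold rule given below at the younger ages and missed it at 16 months, by a small margin.

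**Figure D2:**
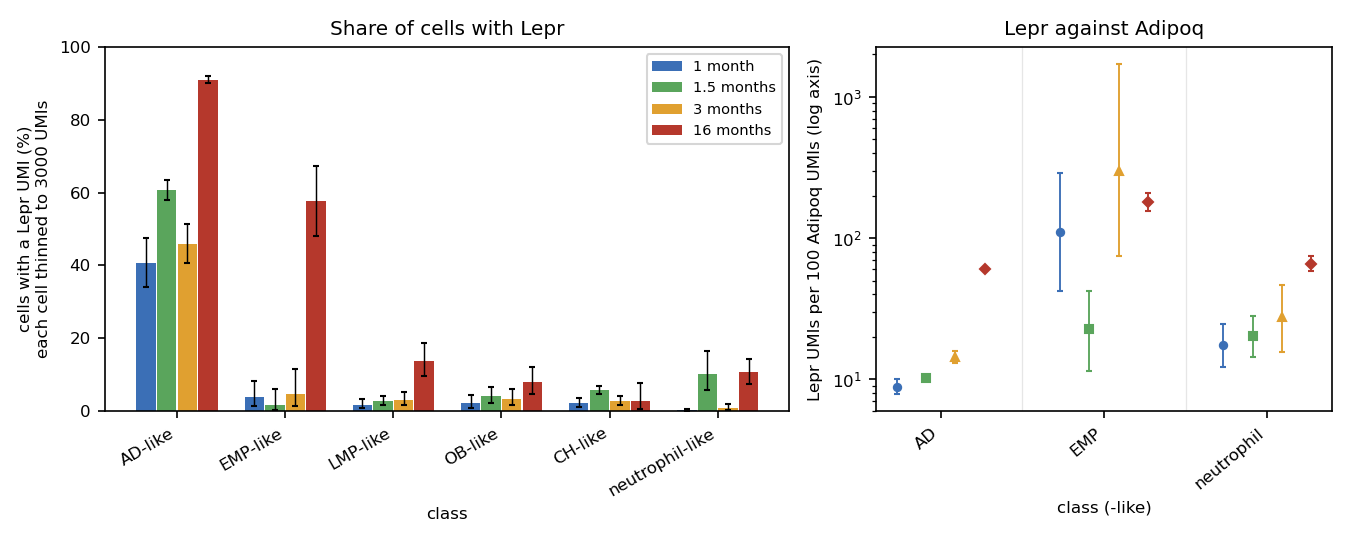
Left, share of cells with a Lepr UMI (%, bars from 0) after each cell was thinned to 3000 UMIs, by class and library; right, Lepr UMIs per 100 Adipoq UMIs (log axis) in 3 classes, all with 95% intervals. EMP-like cells stand at 57.8% at 16 months against at most 4.65% before, and AD-like cells have 8.89 Lepr UMIs per 100 Adipoq UMIs at 1 month and 60.2 at 16 months.

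Lep (chr6:29060220-29073877, plus strand), the ligand of this receptor, had 0 UMIs in every barcode of all 4 tables, inside and outside the cell filter. A count of 0 allows up to 1.83, 0.422, 1.68 and 0.0813 CPM in AD-like cells from 1 to 16 months. The receptor was thus detected in AD-like cells of all ages and the ligand in no cell. Of 13 genes of leptin signalling, 4, 5, 4 and 0 passed the 2-fold rule for AD-like cells above every other mesenchymal class at 1, 1.5, 3 and 16 months: Stat5a, Stat5b and Irs2 in the 3 younger libraries, with Ptpn1 at 1 and 1.5 months, Stat3 at 1.5 months and Jak2 at 3 months. Over all genes counted, 6.16%, 7.28%, 7.09% and 3.14% passed this rule from 1 to 16 months, and these shares hold for the lists below as well. Irs2, an adaptor of insulin and leptin receptors, was 93.2, 93.2, 82.4 and 209 CPM in AD-like cells. It was the 1 gene of the list more than 2-fold higher at 16 months, where 5.99% of all genes counted were. Socs3, the feedback inhibitor that leptin receptor signalling induces, was 483, 992, 859 and 1166 CPM, and Stat3, the transcription factor under the receptor, was 177, 205, 195 and 288 CPM. Leprot, a neighbour of Lepr on the same strand with no overlap in the annotation, was 163, 144, 136 and 82.8 CPM, so it did not share the higher Lepr level of the 16 month library.

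Rarres2 (chr6:48569696-48572789, minus strand) was 500 CPM (467 to 536), 643 CPM, 925 CPM and 949 CPM (939 to 959) in AD-like cells from 1 to 16 months. EMP-like cells had 611 CPM (568 to 657) at 1 month, 344 CPM at 1.5 months, 296 CPM (249 to 348) in the 3 month library and 1508 CPM (1432 to 1586) at 16 months. Mural-like cells, the pericytes and smooth muscle of vessels, had 362, 515, 623 and 681 CPM, and LMP-like cells 78.6, 102, 251 and 480 CPM. The mural-like values rest on 90, 217, 73 and 146 UMIs from 26, 65, 31 and 22 cells. Chemerin mRNA was therefore found in several stromal classes, and the EMP-like cells were above AD-like cells at 1 and 16 months and below them at 1.5 and 3 months. OB-like and CH-like cells had 8.39 to 69.8 CPM and neutrophil-like cells 7.05, 42.9, 21.7 and 98.1 CPM.

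In LMP-like cells, Rarres2 at 16 months was 6.10 times the 1 month level (5.46 to 6.83), and in EMP-like cells 2.47, 4.38 and 5.10 times the 1, 1.5 and 3 month levels. The thinned share of EMP-like cells with a Rarres2 UMI was 76.5%, 51.3%, 34.9% and 89.9% (91.5%, 80.9%, 41.1% and 99.1% unthinned). The 3 month EMP-like value depends on which cells carry the name: it lay between 208 and 653 CPM over the alternative settings. An unnamed subcluster of 47 cells of the 3 month library had 1809 CPM (1618 to 2016). Of the 3 chemerin receptors, 0, 1, 2 and 2 reached the minimum level from 1 to 16 months, and 0 of these passed the 2-fold rule in AD-like cells; Cmklr1, the signalling receptor, was at most 0.422 CPM in AD-like cells and 2.49, 13.2, 12.5 and 17.2 CPM in EMP-like cells.

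Il1rn (chr2:24336853-24351494, plus strand) was 492 CPM (459 to 527) in AD-like cells at 1 month, 582 CPM at 1.5 months, 803 CPM (762 to 846) in the 3 month library and 220 CPM (215 to 224) at 16 months. EMP-like cells had 1.66, 7.13, 2.08 and 20.3 CPM and LMP-like cells 6.54, 12.2, 4.35 and 11.2 CPM. Among mesenchymal classes, the antagonist was thus an AD-like transcript at all 4 ages, and the oldest library had the lowest level, 2.24, 2.65 and 3.66 times below the 1, 1.5 and 3 month libraries. The thinned share of AD-like cells with an Il1rn UMI was 55.1%, 63.7%, 69.2% and 37.0% (72.4%, 76.1%, 71.0% and 61.9% unthinned). Erythroid-like cells, which should lack it, had 5.95 CPM at 1 month and 4.51 CPM at 3 months, and 51.6 and 56.1 CPM at 1.5 and 16 months.

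Myeloid cells are a known source of this antagonist. Macrophage-like cells had 103 CPM (93.5 to 112), 39.1, 59.5 and 61.2 CPM and neutrophil-like cells 40.8, 31.8, 47.6 and 82.2 CPM, below AD-like cells in each library. At 16 months the macrophage-like interval (49.2 to 75.1) overlapped that of erythroid-like cells (48.3 to 64.8). The neutrophil-like interval (74.0 to 91.0) lay above the erythroid-like one and overlapped the upper end of the macrophage-like one. For every 100 Adipoq UMIs, 16 month neutrophil-like cells had 55.2 Il1rn UMIs (48.5 to 62.8), macrophage-like cells 46.0, erythroid-like cells 24.5 and AD-like cells 13.9. The 16 month macrophage-like level was 124 to 128 CPM under 4 alternative settings. At 1 month, when 68.7% of the cells kept were hematopoietic, 61.0% of all Il1rn UMIs lay in hematopoietic cells and 23.6% in AD-like cells, and at 16 months 7.52% and 88.5% did. AD-like cells of the 1 month library also carried neutrophil markers at 14100 CPM in sum, with all 6 at 10 CPM or more, against 361404 CPM in neutrophil-like cells, which had 40.8 CPM of Il1rn. Of 8 genes of the interleukin 1 system, 3, 4, 3 and 4 could be counted under the 2-fold rule from 1 to 16 months. Il1r1, the signalling receptor, passed it at 1 and 3 months, with 87.1, 116, 116 and 174 CPM in AD-like cells from 1 to 16 months.

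Rbp4 (chr19:38116629-38125281, minus strand) had another pattern. LMP-like cells were highest of the named classes at all ages, with 890 CPM (865 to 915), 211 CPM, 416 CPM and 122 CPM, and CH-like cells followed with 610, 94.1, 73.3 and 69.8 CPM. AD-like cells had 281 CPM (256 to 308), 64.8 CPM (59.0 to 71.0), 29.2 CPM (21.8 to 38.2) and 14.6 CPM (13.4 to 15.8), and none of these intervals overlaps another. The 16 month level was 19.3 times below that of 1 month (17.0 to 21.9), 4.45 times below 1.5 months and 2.00 times below 3 months (1.48 to 2.67). The last ratio sits on the 2-fold limit. The thinned share of AD-like cells with an Rbp4 UMI was 39.7%, 13.9%, 7.0% and 3.92% (62.1%, 26.2%, 8.02% and 9.79% unthinned), against 5.21%, 4.79%, 1.16% and 0.302% of neutrophil-like cells.

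The order by age in AD-like cells was not that of LMP-like cells, in which the 3 month library stood above the 1.5 month one, nor of EMP-like cells, which had 263, 29.5, 37.5 and 49.7 CPM. OB-like cells had 126, 41.0, 14.4 and 9.04 CPM. In every one of these classes the 1 month library was the highest. Neutrophil-like cells had 22.3, 23.7, 3.02 and 0.672 CPM, so free Rbp4 RNA was also most abundant in the 2 youngest libraries. An unnamed subcluster whose leading genes were Tnmd, Clu and Thbs4, of 68 cells at 1 month and 55 at 1.5 months, had 1300 CPM (1211 to 1395) and 729 CPM (653 to 811), above the LMP-like cells of the same libraries. Of 11 genes of retinol handling, 8, 9, 7 and 8 could be counted under the 2-fold rule from 1 to 16 months. Aldh1a2, which makes retinoic acid, passed it at 1, 1.5 and 3 months, with 165, 61.0, 78.5 and 171 CPM in AD-like cells. It stood at 133 CPM in EMP-like cells at 16 months.

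Nampt (chr12:32819545-32853349, plus strand) was 45.1, 51.6, 45.4 and 66.3 CPM in AD-like cells. Macrophage-like cells had 41.0, 97.7, 75.5 and 67.9 CPM and endothelial-like cells 26.0, 58.5, 48.0 and 70.4 CPM. These classes were close, and AD-like cells stood below macrophage-like cells at 3 months (ratio 0.602, 0.447 to 0.807) and could not be separated from them at 1 and 16 months. The 1.5 month macrophage-like value rests on 21 cells, and it was 21.4 CPM with the cells of highest doublet score left out. OB-like cells were lower, with 13.4, 8.93, 8.54 and 14.2 CPM, and so were erythroid-like cells at 7.62, 4.91, 26.0 and 15.8 CPM. In AD-like cells the 16 month level was 1.47 times the 1 month level (1.17 to 1.88). In EMP-like cells, with 24.1, 18.3, 22.9 and 60.9 CPM, it was 2.52 times the 1 month level (1.60 to 4.08). Of 7 other genes of NAD synthesis and use, 3 reached the minimum level in AD-like cells. Of these, Sirt1, an NAD-dependent deacetylase, was 18.9, 29.5, 29.2 and 69.0 CPM there. It was the 1 gene more than 2-fold higher at 16 months, as were 5.99% of all genes counted. Sirt1 also passed the rule for AD-like cells above other classes at 1.5 months, where 3 genes of the list could be counted.

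Cfd (chr10:79890853-79892655, plus strand), a protein that fat cells secrete in quantity, was at or near 0 in AD-like cells: 0 UMIs at 1 month, 1 at 1.5 months, 8 at 3 months (4.49 CPM) and 19 at 16 months (0.515 CPM). Endothelial-like cells held 2 of 9, 1 of 3, 28 of 36 and 67 of 97 Cfd UMIs in the cells kept, or 1.33, 3.44, 18.9 (12.6 to 27.4) and 46.7 CPM (36.2 to 59.3) from 1 to 16 months. At 1 month EMP-like cells held 3 UMIs (2.49 CPM), and the endothelial-like share was 22.2%, 33.3%, 77.8% and 69.1% from 1 to 16 months. A Cfd UMI was seen in 2 of 170, 1 of 32, 13 of 247 (5.26%) and 20 of 90 (22.2%, 14.1% to 32.2%) endothelial-like cells. With the mitochondrial limit at 10%, which raises the number of 16 month endothelial-like cells to 210, 68 of them (32.4%) had a Cfd UMI and the level was 91.2 CPM. In the 16 month barcodes outside the filter, 77 of 3086 held 382 Cfd UMIs, and at most 35 of these came from 1 barcode.

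The endothelial-like cells with a Cfd UMI were set against those without in the 2 older libraries. At 3 months, the 13 cells with Cfd had 223 CPM of Plin1, the coat protein of lipid droplets (18 UMIs), against 0.716 CPM in the other 234 cells, and 719 CPM of Adipoq against 95.9 CPM, 1501 CPM of the lipase Lpl against 188 CPM and 248 CPM of Rbp4 against 7.16 CPM. They also held 4 of the Retn UMIs (49.6 CPM), where the other cells had 0. At 16 months, Plin1 was at 0 in the 20 cells with Cfd and in the 70 without, and the cells with Cfd had more Lpl (2206 against 895 CPM) and more of the sinusoidal gene Stab2 (689 against 314 CPM). Stab2 was also higher with Cfd at 3 months (906 against 434 CPM), and Adipoq was also higher with Cfd at 16 months (582 against 282 CPM). The endothelial cadherin Cdh5 was 831 CPM with Cfd and 1003 CPM without at 3 months, and 725 and 880 CPM at 16 months. The 5 endothelial markers summed to 3151 CPM (2775 to 3563) with Cfd and 4303 CPM (4195 to 4413) without at 3 months. At 16 months they summed to 2907 CPM (2725 to 3097) and 3506 CPM (3396 to 3618), so the sum was lower with Cfd in both libraries. With the cells of highest doublet score left out, 3 month endothelial-like cells had 26.8 CPM of Adipoq instead of 130, 2.68 CPM of Rbp4 instead of 20.3 and 8.93 CPM of Il1rn instead of 34.5, while their Cfd level stayed inside its counting interval. Of 5 genes of the alternative complement pathway, 4 reached the minimum level in AD-like cells. Of these, Cfb, the substrate of adipsin, was 4.87, 28.0, 59.4 and 127 CPM there. It was more than 2-fold higher at 16 months than at any other age, as were 5.99% of all genes counted. C3 was 28.0, 65.6, 179 and 288 CPM and passed no rule. No gene of the list passed the rule for AD-like cells above the other classes, for which 3 could be counted in each library.

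**Figure D3:**
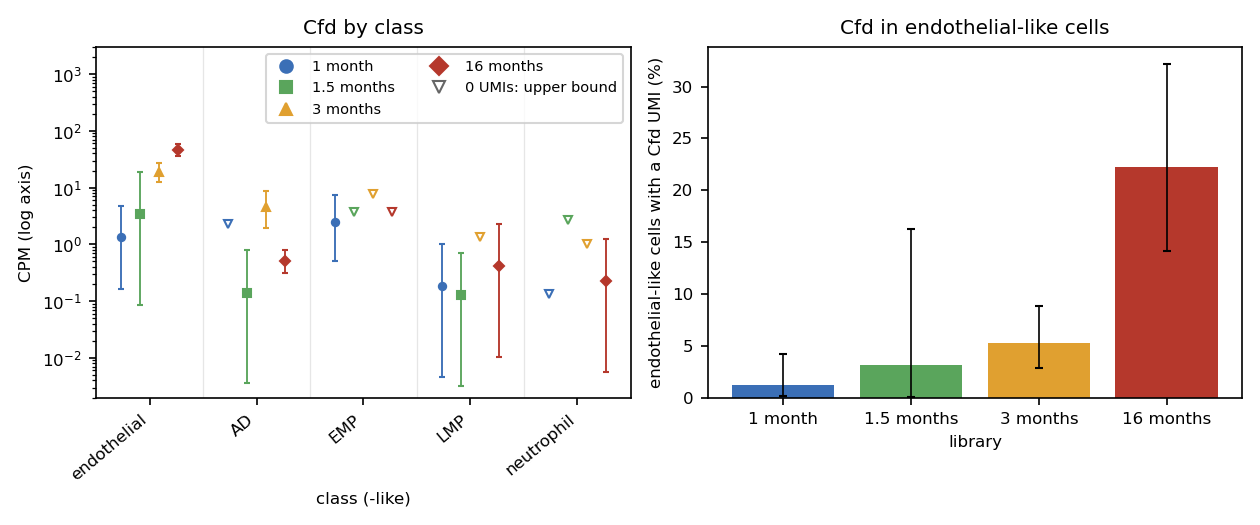
Left, level of Cfd (CPM, log axis) by class and library, with 95% intervals and open triangles at the upper bound where no UMI was found; right, share of endothelial-like cells with a Cfd UMI (%, bars from 0, unthinned). The endothelial-like cells stand at 18.9 and 46.7 CPM in the 2 older libraries, and the share reaches 22.2% at 16 months.

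Retn (chr8:3655770-3660110, plus strand) gave 49, 48, 26 and 37 UMIs in all barcodes of the 4 libraries, of which AD-like cells held 0, 1, 1 and 4. Neutrophil-like cells had 0.787, 5.18, 0.825 and 3.81 CPM, and 34 of the 45 UMIs in kept cells of the 1.5 month library lay in CH-like cells, which had 1.17 CPM. The level is uncertain, because Retn belongs to a family of near copies among which Retnlg is abundant in neutrophils, and Retnlg was 657, 5.90, 48.2 and 6.43 CPM in AD-like cells. Of 5 other genes of the resistin family and its proposed receptors, 3 reached the minimum level in AD-like cells. Of these, Cap1 (16.4, 18.0, 14.6 and 50.3 CPM in AD-like cells) and Tlr4 (3.66, 11.9, 8.97 and 28.0 CPM) were more than 2-fold higher at 16 months, as were 5.99% of all genes counted.

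To set the members against all genes, those at 10 CPM or more in at least 1 of the mesenchymal classes compared were counted. They were higher in AD-like cells when their CPM was at least 2-fold above that of every other named mesenchymal class. No minimum of cells was set for these classes, and Ocy-like cells numbered 41, 95, 33 and 47 from 1 to 16 months. At 1 month 3 of the 6 members that could be counted passed (Adipoq, Lepr and Il1rn), where 6.16% of 9043 genes did. At 1.5 months 4 passed, with Nampt added, against 7.28% of 9007 genes. At 3 months 4 passed (Adipoq, Lepr, Rarres2 and Il1rn) against 7.09% of 9291 genes, and at 16 months 2 (Adipoq and Il1rn) against 3.14% of 9707 genes. The members were chosen as adipokines, which are adipocyte genes by name, so these counts describe them and test nothing. The Rarres2 call at 3 months was lost under 4 alternative settings, and 3 members were called at 16 months under 6. In 4 of these, for which the names were listed, the added one was Lepr. At 1 of the 4, a resolution of 0.5, there was no EMP-like class at 16 months to compare with. In the values given, the ratio of Lepr to EMP-like cells was close to the limit.

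Between ages, a member was counted when the 16 month CPM was at least 2-fold above, or at least 2-fold below, each of the other 3 libraries. A higher call also needed 10 CPM at 16 months, and a lower call 10 CPM in each of the other 3 libraries. In AD-like cells, Lepr was the 1 member of 6 that was higher, where 5.99% of 8750 genes were, and Rbp4 and Il1rn were the 2 that were lower, where 1.95% were. The Il1rn call was lost at a resolution of 1.2 and with every library clustered on its own, and the Rbp4 call with all variable genes used for clustering. Adipoq, Rarres2 and Nampt did not pass in either direction. In EMP-like cells, 5 of 6 members were higher at 16 months (Adipoq, Lepr, Nampt, Rarres2 and Il1rn), where 14.4% of 9352 genes were, and 0 were lower, where 3.86% were. Il1rn reached 10 CPM in the 16 month EMP-like cells alone, and its 20.3 CPM there lay below the 56.1 CPM of erythroid-like cells. Adipoq and Lepr were below 10 CPM in the 1 month EMP-like cells. Il1rn, Adipoq and Lepr could therefore only be counted as higher in this class. Over all genes counted, the median log2 ratio of 16 months to 1, 1.5 and 3 months was 0.05, 0.04 and 0.14 in AD-like cells and 0.18, 0.21 and 0.26 in EMP-like cells, so the EMP-like ratios include a general shift in that direction. All of these comparisons share the 16 month library, and with 1 library an age there is no test.

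The number of members with a UMI was counted in single AD-like cells. After thinning to 3000 UMIs, 3 members detected per cell was the commonest number in all libraries, in 34.1%, 38.1%, 44.0% and 45.8% of AD-like cells, and 4 members were detected in 26.6%, 31.7%, 28.3% and 33.9%. No cell had more than 6 of the 9. In these thinned cells, a Lepr UMI was found in 41.7%, 61.0%, 46.3% and 90.9% of those with an Adipoq UMI and in 33.3%, 45.0%, 41.4% and 92.2% of those without, which were 27, 20, 29 and 296 cells from 1 to 16 months. The intervals of both groups overlapped in each library. At 16 months most of the cells without Adipoq lack it only after thinning, and no level of free RNA was taken off these counts.

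The AD-like cells of the 16 month library fell into 7 subclusters, chosen for description after their values were seen. Subclusters 1, 2, 3, 4 and 9, with 1123, 1069, 679, 632 and 131 cells, were alike in Rbp4 (10.4 to 16.9 CPM) and Il1rn (204 to 236 CPM), and differed in Lepr, which was highest in subcluster 4 at 1313 CPM (1278 to 1348) and lowest in subcluster 3 at 820 CPM. Subcluster 4 had the lowest median depth of the 5 (6551.5 UMIs, against 8982 to 21999) and Ogt, Pnisr and AY036118 among its leading genes, and subcluster 3 was led by heat shock genes such as Hspb1 and Hspa1a; the part of depth and stress in the Lepr difference was not tested. Subcluster 12, of 48 cells, had the most Adipoq (1946 CPM), Rbp4 (107 CPM, 77.9 to 143) and Il1rn (410 CPM, 352 to 476), less Lepr (712 CPM), and 5 Cfd UMIs (11.9 CPM). It was also the subcluster with the most Fabp4, a fatty acid carrier of fat cells (2771 CPM, against 71.8 to 156 CPM in the 5 large ones), Lpl (4885 CPM) and Plin1 (21.4 CPM, against 0.171 to 0.387 CPM). Subcluster 14, of 36 cells, had the most Nampt (119 CPM) and less Il1rn (133 CPM). The small subcluster with the most Fabp4, Lpl and Plin1 was thus also the one with the most Adipoq, Rbp4 and Il1rn.

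**Figure D4:**
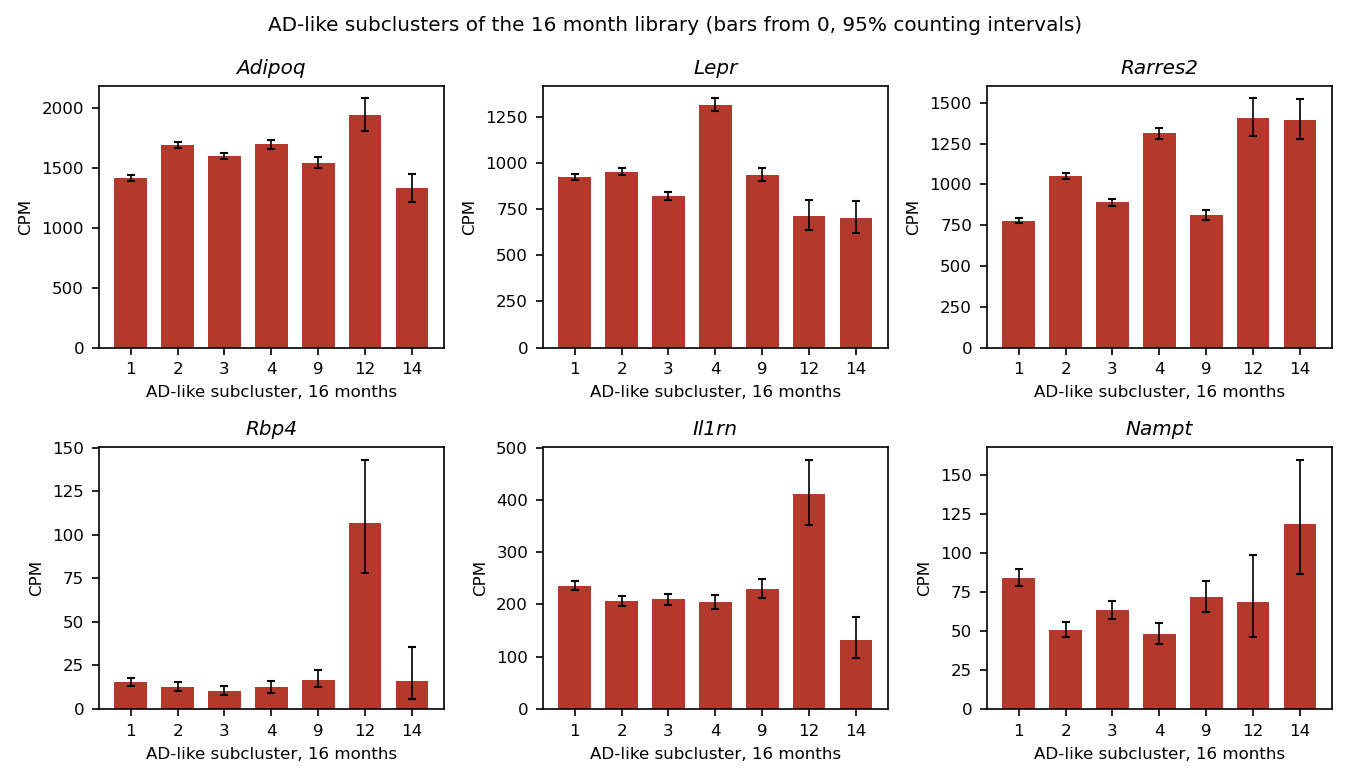
Level of 6 members (CPM, bars from 0, with 95% counting intervals) in the 7 AD-like subclusters of the 16 month library. Subcluster 12 has 107 CPM of Rbp4 and 410 CPM of Il1rn, and subcluster 4 has the highest Lepr at 1313 CPM.

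In the 16 month library a similar order was seen when AD-like cells were split by Plin1, the droplet coat protein. The split is not separate from the subclusters, since subcluster 12 held 9 of the 19 Plin1 UMIs there. A Plin1 UMI was found in 0, 2, 2 and 13 AD-like cells from 1 to 16 months. The 13 cells at 16 months had 2203 CPM of Adipoq, 504 CPM of Lepr against 951 CPM in the AD-like cells without Plin1, 99.6 CPM of Rbp4 against 14.2 CPM and 1680 CPM of Fabp4 against 145 CPM. At 3 months, the 2 cells with Plin1 held 7 of the 8 Cfd UMIs of AD-like cells. They had 592 CPM of Rbp4 against 24.9 CPM in the cells without Plin1, but 296 CPM of Il1rn against 807 CPM. The 2 cells with Plin1 at 1.5 months had 0 UMIs of Rbp4 and of Fabp4, and 82.3 CPM of Il1rn against 583 CPM. Of 10 genes of fat-laden adipocytes, 3, 3, 2 and 3 could be counted under the 2-fold rule from 1 to 16 months. Fabp4 passed it at 1.5, 3 and 16 months and Dgat2, which makes triglyceride, at 1.5 and 16 months. At 3 months, the 2 cells with Plin1 held 214 of the 260 Fabp4 UMIs of AD-like cells. The other 422 AD-like cells of that library had 26.0 CPM of Fabp4. Plin1 was at most 3.36 CPM in AD-like cells of any library, and Ucp1, the uncoupling protein of brown fat, had 0 UMIs in AD-like cells.

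The other genes that act on adipokines or belong with them were given by lists chosen with earlier results known. Of 15 further adipokines, 10, 9, 10 and 10 could be counted under the 2-fold rule for AD-like cells from 1 to 16 months. Angptl4, an inhibitor of lipoprotein lipase (457, 587, 284 and 497 CPM), Serpina12, or vaspin (48.1, 132, 351 and 213 CPM), and Agt, the angiotensin precursor and 1 of the naming markers (900, 1058, 745 and 792 CPM), passed it in all 4 libraries. Ccl2, the chemokine that draws monocytes, passed at 1.5, 3 and 16 months with 1507, 2140 and 1462 CPM, and had 225 CPM at 1 month. Of the 9 of them that reached the minimum level in AD-like cells, 0 were 2-fold apart between 16 months and all other ages. Of 7 genes of adiponectin receptors and assembly, 0 passed in AD-like cells: Adipor1 was 112, 133, 104 and 60.8 CPM there, and the binding protein Cdh13 was 2.44, 3.23, 2.80 and 0.569 CPM in AD-like cells and 149, 136, 169 and 20.3 CPM in EMP-like cells. The ligand and this binding protein were thus high in different classes of the same libraries.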

How the data were processed

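Td+ endosteal bone marrow cells of 4 ages were sequenced as 1 library per age by the 10x method. The authors counted UMIs per gene and barcode with Cell Ranger 3.0.2 on mm10, per the labels and the submitters' processing notes, and deposited these raw UMI counts; the values were whole numbers and not normalized. The notes also name Seurat 2, and the methods V3 chemistry for all libraries. Total counts were 108227184, 63258961, 32672631 and 93269331 UMIs from youngest to oldest, in 8417, 5745, 4516 and 9229 barcodes.

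From the deposited counts, barcodes of 200 to 6000 genes were kept where no more than 5% of UMIs were mitochondrial. No doublets were removed in the values given; as an alternative, the 8% of cells with the highest Scrublet scores (scanpy 1.11.5) were left out. Cells were clustered with Seurat 5.3.0 (R 4.3.3) on 2000 variable genes without the members, pathway genes and markers, 30 components and a resolution of 0.8, with the 1 and 1.5 month libraries aligned. Clusters of mesenchymal cells were clustered again. A cluster was named "-like" from a list of markers, and the thresholds of that naming were set after clusters had been seen, from markers and not from members. Clusters that met no rule kept numbers. The members and all gene lists were chosen with earlier results of these data known.

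UMIs were summed per class and library over the 26600 genes in every table and given as CPM with exact Poisson intervals, and ratios have exact conditional binomial intervals. Shares of cells have Clopper-Pearson intervals, after each cell was thinned to 3000 UMIs. A count of 0 allows up to 3 counts. PCR copies are collapsed by UMIs, and intervals cover counting error only. No test was made, as each age is 1 library, so members are described by a fold of 2 against a minimum of 10 CPM, and the named genes are all 9 members, members of the lists and, for each member that reached 10 CPM, the 5 genes of most similar pattern. Subclusters and split cells were chosen after their values were seen. The rules were tested on simulated data. Coordinates of genes are those of GENCODE M21 on GRCm38. The alternatives changed the resolution (0.5, 1.2), the joint clustering, the genes used, the limits on mitochondrial UMIs (10%) and genes (1000), doublets, the scaling and the thinning. Python 3.11.15, numpy 2.4.6, scipy 1.17.1 and pandas 2.3.3 were used.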

Additional observations from a re-analysis of the deposited data

Results flagged for a closer look

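Rarres2 and Rbp4 stood above EMP-like cells in AD-like cells of some libraries and below them in others, with counting intervals on opposite sides of 1. For Rarres2, the AD-like level over the EMP-like level was 0.818, 1.87, 3.13 and 0.630 from 1 to 16 months. For Rbp4, it was 2.19 at 1.5 months and 0.293 at 16 months. The difference between libraries was not tested, since each age is 1 library. The 3 month EMP-like level of Rarres2 lay between 208 and 653 CPM over the alternative settings.

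The 3086 barcodes of the 16 month library outside the cell filter enter no comparison, and their counts were above the limit of 3 counts for every member but Lep. They had 472 CPM of Adipoq, 410 CPM of Lepr, 547 CPM of Rarres2, 68.3 CPM of Il1rn, 51.4 CPM of Nampt, 16.8 CPM of Rbp4, 15.2 CPM of Cfd and 0.556 CPM of Retn. The 77 barcodes among them with a Cfd UMI had 797 CPM of Cdh5 and 629 CPM of Stab2, and the 5 endothelial markers summed to 3170 CPM in them against 334.5 CPM in the barcodes without Cfd.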

How the results depend on the processing

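The limits are these. There is 1 library per age, so no replicate could be left out and the spread between mice is unknown. The 16 month library differs in barcodes and gene list. Its EMP-like class holds 110 cells and has other leading genes than that of the 1 and 1.5 month libraries. Free RNA reaches the level of several classes at 1.5 and 16 months. No paired analysis was possible because each group holds 1 pooled library and no result comes from a test. Of 1876 values of single members recomputed, 1425 lay inside the counting interval of the value given and 451 outside, 1511 were within 1.5-fold and 217 more than 2-fold away. The 2 members at least 2-fold lower in AD-like cells at 16 months (Rbp4 and Il1rn) became 1 with a resolution of 1.2, with every library clustered on its own, with all variable genes and with the mean of each cell's CPM. Rbp4 alone was left under the first and second of these, and Il1rn alone with all variable genes. Lepr in EMP-like cells, 16 months over 1 month, was 29.7 instead of 55.5 after thinning to 3000 UMIs, and 46.8 to 77.7 under the other alternatives that gave a value. At a resolution of 0.5 the 16 month EMP-like cells joined LMP-like cells and gave no value. The count of members higher in AD-like cells at 16 months was 1 under every alternative run, and it was Lepr wherever the names were listed. Subtracting the neutrophil-like level, leaving out cells with Adipoq, scaling by the median ratio of all genes and leaving out subcluster 12 were added after seeing the data.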

Other observations

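The genes whose level followed each member most closely over 43 combinations of a named class and a library (log2 of CPM + 1, 12322 genes) were found as a description. The points share libraries, depth and free RNA, and the classes were named from some of these genes. For Adipoq they were Kng2 (Pearson r 0.968), Ms4a4d (0.968), Gdpd2 (0.964), Cxcl12 (0.959) and Esm1 (0.954), of which all but Ms4a4d are naming markers of AD-like cells. For Lepr they were the transcription factor Ebf3 (0.945), Cyp1b1 (0.936), Cxcl12 (0.932), Slc26a7 and Pappa. For Rarres2 they were the complement proteases C1s1 (0.965) and C1ra (0.963), their inhibitor Serping1 (0.962), Igfbp5 (0.957) and Fst. For Il1rn, transferrin (Trf, 0.872) came first, followed by Eepd1, Serpina3g, Hp and Kng1.

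The nearest genes of Rbp4 were Ptn (0.858), H19, Matn4, Itm2a and Cilp2. Those of Nampt were Zc3h12a (0.878), Fam168b, Soat1, Slc25a28 and Tap2, and those of Cfd were Gnat1 (0.875), Nr5a2, Sele, Thrsp and Wipf3. Cfd had no UMI in most of these class and library combinations. Between members, r was 0.870 for Adipoq and Lepr, 0.791 for Adipoq and Il1rn, 0.799 for Lepr and Rarres2, and -0.10 for Adipoq and Rbp4.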
